A study of Mus musculus with 4 samples.

Results

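The 9 genes described here encode the subunits of cohesin in the mouse male germ line. The meiotic subunits are *Rec8*, *Rad21l*, *Stag3* and *Smc1b*, and the general subunits, which somatic cells also use, are *Smc1a*, *Smc3*, *Rad21*, *Stag1* and *Stag2*. They were taken by gene symbol from the 24411 genes of each file, and all 9 were found and passed the filter on low values. RNA was sequenced from GFP-positive cells sorted from the testes of 4 mice at postnatal day 18, of which 2 were labelled *Zfp541*+/- (controls) and 2 *Zfp541* KO. The labels give the strain as mixed C57BL/6 and CBA, and the study's methods give C57BL/6. Every mouse carried a knock-in at *Rec8* (*Rec8*-3xFLAG-HA-p2A-GFP), in which the end of the *Rec8* coding sequence is joined to tags and GFP is made together with REC8. According to the series' design, the knock-in was heterozygous in 1 control and homozygous in the other and in both *Zfp541* KO mice, but the sample labels do not say which control is which. The *Zfp541* allele is a CRISPR/Cas9 deletion of a run of exons from the first onward, and the controls carry it on 1 chromosome. The study names a line of *Zfp541* KO mice that it used unless stated otherwise, and the sample labels name none.

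Cohesin is a ring that holds sister chromatids together. An SMC1 and an SMC3 protein form the ring, a kleisin closes it, and an SA (STAG) protein binds the kleisin. Germ cells replace most of these parts in meiosis, with SMC1β (*Smc1b*) for SMC1α (*Smc1a*), REC8 or RAD21L for RAD21, and STAG3 for STAG1 and STAG2, whereas SMC3 serves both kinds of complex. Meiotic cohesin forms the base of the chromosome axis on which homologues synapse and recombine, and REC8 is the kleisin that separase has to cut for chromosomes to part.

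Levels were given as TPM, a transcript abundance per length that sums to the same total in each library, so levels of different genes can be set side by side but the sequencing depth is unknown. A few facts of the libraries bear on everything that follows. *Zfp541*, the targeted gene, had 112 TPM in control 1, 72.2 TPM in control 2, and 136 and 151 TPM in those labelled *Zfp541* KO (the KO-labelled libraries). Its transcript was not lower in the latter, so each direction given here rests on the labels. The controls lay farther apart than any other pair, at a Euclidean distance of 153 over the 14512 genes tested (those averaging 1 TPM or more), against 49.2 between the KO-labelled libraries. Summed over 5 markers, macrophage transcripts were at 2045 TPM in control 1 and 21.6 TPM in control 2, and at 1251 to 1687 TPM in the KO-labelled libraries. The sum of 6 Leydig cell markers was 3603 and 19.4 TPM in the control libraries and 392 to 606 TPM in the others. Sums of germ cell stage markers also differed, in TPM as deposited and without scaling between libraries. The 9 leptotene and zygotene markers measured, of 10 listed, summed to 407 and 678 TPM in the control libraries and 779 to 954 TPM in the KO-labelled libraries, and 6 of them were higher in both of the latter. The 12 pachytene markers summed to 7741 and 4199 TPM and to 2088 to 3042 TPM, and 7 were lower in both, where 38.6% of all genes tested were higher and 12.1% lower in both. Spermatogonial markers (10 genes) summed to 311 to 1093 TPM in the control libraries and 470 to 547 TPM in the others, and Sertoli cell markers (7 genes) to 715 to 829 TPM and 765 to 1082 TPM. The sums of the other lists were low, at 17.6 to 24.7 and 32.5 to 32.6 TPM for round spermatids (8 genes), 12.3 to 18.7 and 18.5 to 24.7 TPM for peritubular myoid cells (5 genes), and 20.3 to 71.5 and 29.7 to 280.2 TPM for red blood cells (5 genes). Of the round spermatid markers, *Tnp1* was listed at 0 in control 1, and *Acrv1*, *Prm1*, *Prm2*, *Tnp1* and *Tnp2* in control 2. *Prm1* was at 0 in KO-labelled library 1, and *Prm1* and *Prm2* in KO-labelled library 2. These genes are named for their values of 0, outside the rule for named genes. In sorted bulk samples, fewer cells of a type and less RNA per cell cannot be told apart, and the part of these markers in the values of the cohesin genes was not tested.

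In the controls the cohesin transcripts spanned more than an order of magnitude, led by *Stag3* and *Smc1b*. *Stag3* stood at 286 ± 2.57 TPM and *Smc1b* at 198 ± 47.9 TPM (SD, n = 2), and their ranges did not meet. *Stag3* was above 95.7% to 97.1% of the genes tested in every library, and *Smc1b* above 91.8% to 97.9%. *Rad21*, *Smc3* and *Stag1* followed at 62.8 ± 1.06, 60.7 ± 6.38 and 60.4 ± 11.2 TPM (SD, n = 2), with ranges that overlapped. *Rad21l* was lower, at 30.5 ± 8.10 TPM (SD, n = 2). *Smc1a*, *Stag2* and *Rec8* closed the order at 19.7 ± 5.80, 18.7 ± 6.51 and 17.4 ± 14.7 TPM (SD, n = 2) and could not be told apart. The meiotic subunits thus held both the highest transcripts and, with the REC8 kleisin whose knock-in marked the sorted cells, one near the bottom of the order. In the KO-labelled libraries, *Smc1b* stood above *Stag3*, at 457 ± 3.03 against 344 ± 14.8 TPM (SD, n = 2), and *Stag1* and *Smc3*, at 126 ± 3.32 and 115 ± 13.8 TPM (SD, n = 2), stood above *Rad21*, at 85.6 ± 2.61 TPM (SD, n = 2). *Rad21l* was at 45.5 ± 13.3 TPM (SD, n = 2), and the ranges of *Stag2*, *Rec8* and *Smc1a* again overlapped, at 25.7 ± 1.53, 23.5 ± 5.83 and 23.3 ± 2.84 TPM (SD, n = 2).

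**Figure D1:**
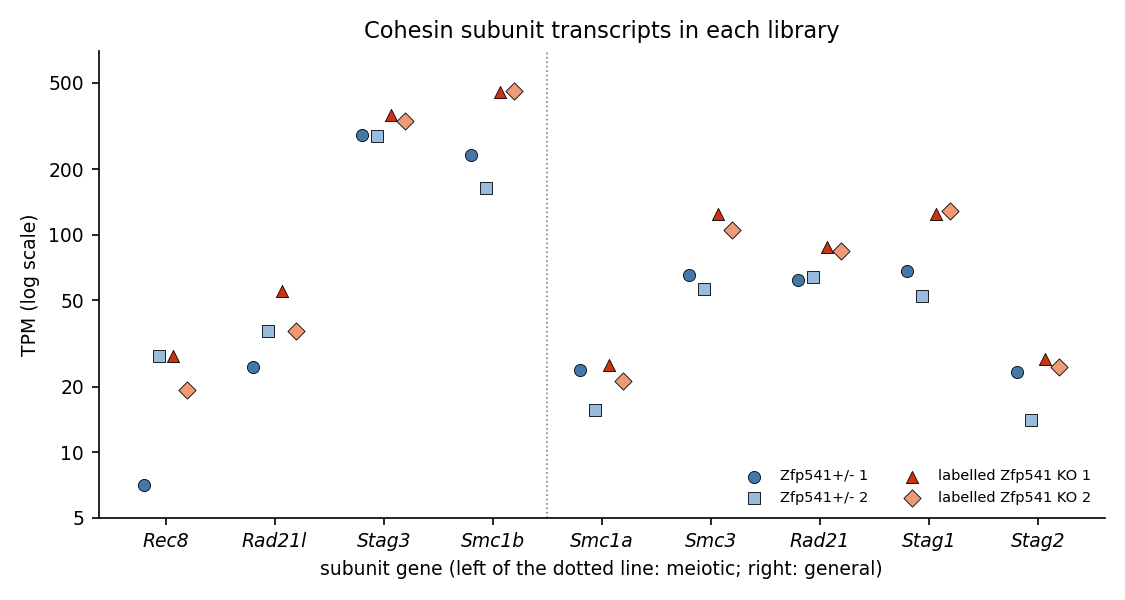
TPM of the 9 cohesin subunit genes on a log axis, 1 point per library, with the meiotic subunits left of the dotted line and the general ones right of it. For *Smc1b*, *Smc3*, *Stag1*, *Rad21*, *Stag3* and *Stag2* both KO-labelled libraries lie above both controls, whereas *Rec8* in control 1 (7.05 TPM) lies far below the other 3 libraries.

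*Smc1b* showed the largest difference between the groups among the 9 genes. It encodes the meiotic SMC1 protein and lies on the reverse strand at chr15:85064689-85131964 (GRCm38, the assembly that UCSC names mm10). Control 1 had 232 TPM of it, control 2 had 165 TPM, and there were 455 and 459 TPM in the KO-labelled libraries. Both KO-labelled libraries were above both controls, by 2.30-fold on the group means, and they agreed closely with each other while the controls did not. On the log2(TPM + 1) scale, on which a fold change of a low gene is understated, the difference was 1.22 (standard error 0.25, 95% interval 0.55 to 1.88), with an unadjusted p of 0.00641 and an adjusted p of 0.310 from limma over all genes tested. Its general counterpart *Smc1a*, X-linked at chrX:152016428-152062694, was at 23.8 and 15.6 TPM in the control libraries and 25.3 and 21.3 TPM in the KO-labelled libraries. These values overlapped, and the log2 difference of 0.26 had an interval from -0.63 to 1.15 (adjusted p = 0.733 from limma). *Smc3*, the partner of both SMC1 proteins, at chr19:53600398-53645833, was at 65.2 and 56.2 TPM in the control libraries and at 125 and 105 TPM in the KO-labelled libraries. The groups were apart by 1.90-fold, a log2 difference of 0.91 (standard error 0.20, interval 0.36 to 1.47, adjusted p = 0.310 from limma). The ratio of *Smc1b* to *Smc3* itself was 3.56 and 2.93 in the control libraries and 3.64 and 4.35 in the KO-labelled libraries.

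The SA genes differed from each other. *Stag1*, a general SA gene at chr9:100597798-100959375, was at 68.3 and 52.5 TPM in the control libraries and at 124 and 128.5 TPM in the KO-labelled libraries. The groups were apart by 2.09-fold (log2 difference 1.06, standard error 0.22, interval 0.48 to 1.64, adjusted p = 0.310 from limma). *Stag3*, the meiotic SA gene at chr5:138280240-138312393, was at 288 and 284 TPM in the control libraries and at 354 and 333 TPM in the KO-labelled libraries. All 4 values lay close together, and although the groups did not overlap the difference was 1.20-fold, a log2 difference of 0.26 (standard error 0.18, interval -0.23 to 0.76, adjusted p = 0.536 from limma). That is below the median of 0.28 over all genes tested. *Stag2*, X-linked at chrX:42149317-42277185, was at 23.3 and 14.1 TPM in the control libraries and at 26.8 and 24.6 TPM in the others. Control 1 nearly reached the KO-labelled libraries, and the log2 difference was 0.48 (standard error 0.34, interval -0.45 to 1.41, adjusted p = 0.547 from limma). The 548 X-linked genes tested had a median log2 difference of 0.28, as had the 13347 autosomal ones, and 28.6% of X-linked genes were higher in both KO-labelled libraries, against 38.9% of autosomal genes.

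The kleisins differed most in how closely their replicates lay. *Rad21*, the general kleisin at chr15:51962240-51991747, was the steadiest of the 3 kleisins within groups, at 62.1 and 63.6 TPM in the control libraries and 87.4 and 83.7 TPM in the KO-labelled libraries. The groups were 1.36-fold apart (log2 difference 0.44, standard error 0.18, interval -0.041 to 0.92, adjusted p = 0.365 from limma). *Rad21l*, the meiotic kleisin at chr2:151645404-151668533, was at 24.8 and 36.21 TPM in the control libraries and at 54.9 and 36.10 TPM in the others. Control 2 and the KO-labelled library 2 were at the same level, and the log2 difference of 0.56 (standard error 0.34, interval -0.37 to 1.48) had an adjusted p of 0.491 from limma. *Rec8*, at chr14:55618037-55625395, had 7.05 TPM in control 1, 27.9 TPM in control 2, and 27.7 and 19.4 TPM in the KO-labelled libraries. Control 1 stood alone, 3.95-fold below control 2, a gap on the log2 scale larger than that of 88.5% of the genes tested. The log2 difference between groups was 0.67 (standard error 0.70, interval -1.23 to 2.57, adjusted p = 0.675 from limma). It was -0.25 without control 1 and 1.59 without control 2. Its direction thus depended on which control was used. Control 1 also had the lowest sums of leptotene and zygotene (407 TPM), spermatogonial (311 TPM) and peritubular myoid markers (12.3 TPM). Its sums of pachytene (7741 TPM), Leydig cell (3603 TPM) and macrophage markers (2045 TPM) were the highest. The part of these in the level of *Rec8* was not tested. As the cells were sorted by GFP from the *Rec8* locus, and the controls differ in the number of knock-in alleles, the level of *Rec8* was not independent of the sort, and the part of the allele in it was not tested.

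Ratios of paralogues within a library are not altered by a scaling factor per library, such as the median ratio, and they differed among the 3 positions of the ring. *Smc1b* was 9.77 and 10.6 times as abundant as *Smc1a* in the control libraries and 18.0 and 21.6 times in the KO-labelled libraries. The log2 ratio was 0.95 higher in the latter, against gaps of 0.11 between the controls and 0.26 between the KO-labelled libraries, so *Smc1b* made up 90.7% and 91.4% of SMC1 transcripts in the control libraries and 94.7% and 95.6% in the others. The SA position went the other way. *Stag3* was 3.14 and 4.27 times as abundant as *Stag1* and *Stag2* together in the control libraries, and 2.35 and 2.18 times in the KO-labelled libraries, a log2 ratio lower by 0.70 on average, with gaps of 0.44 and 0.11 within the groups. The share of *Stag1* among SA transcripts was 18.0% and 15.0% in the control libraries and 24.5% and 26.4% in the KO-labelled libraries, and that of *Stag2* was 6.13% and 4.01% and then 5.30% and 5.06%. Against *Stag2* alone, *Stag3* showed no separation, with ratios of 12.4 and 20.2 in the control libraries and 13.2 and 13.5 in the others. Within the general SA pair, *Stag1* was 2.93 and 3.73 times as abundant as *Stag2* in the control libraries and 4.62 and 5.22 times in the KO-labelled libraries.

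At the kleisin position the groups overlapped. *Rec8* and *Rad21l* together were 0.512 and 1.01 times *Rad21* in the control libraries and 0.945 and 0.663 times in the KO-labelled libraries, and the controls alone spanned the whole range. *Rad21* was the most abundant kleisin transcript in every library, with 66.1% and 49.8% of the total in the control libraries and 51.4% and 60.1% in the others, and *Rad21l* exceeded *Rec8* in every library, by 3.51-fold in control 1, 1.3-fold in control 2, and 1.98-fold and 1.86-fold in the KO-labelled libraries. Summed over all positions, the 4 meiotic subunits were 2.27 and 2.54 times the 5 general ones in the control libraries and 2.30 and 2.33 times in the KO-labelled libraries. The overall balance of meiotic to general cohesin transcripts therefore overlapped between the groups, although both sums were higher in the KO-labelled libraries, at 892 and 848 against 552 and 513 TPM for the meiotic and 388 and 364 against 243 and 202 TPM for the general subunits. No test was made of these ratios, since the members were chosen with earlier results known, so they are set only against the gaps within groups.

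**Figure D2:**
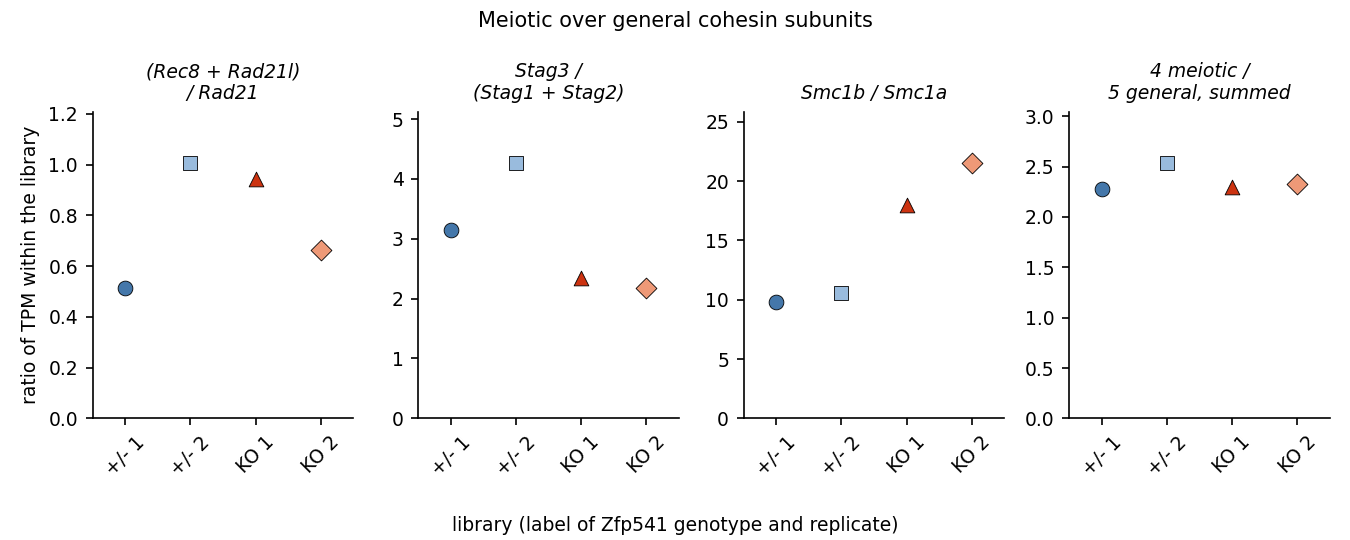
Ratio of meiotic to general cohesin transcripts (TPM over TPM) within each of the 4 libraries, for the kleisins, the SA subunits, the SMC1 subunits and all 9 genes summed, with each vertical axis starting at 0. The SMC1 ratio is 9.77 and 10.6 in the control libraries and 18.0 and 21.6 in the KO-labelled libraries, the SA ratio is lower in the latter, and the other 2 ratios overlap.

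Taking the 9 genes as a list, all had a log2 difference above 0, with a median of 0.56 and a range of 0.26 to 1.22. Of the 14512 genes tested, 10007 also had a difference above 0. The median was 0.61 for the meiotic and 0.48 for the general subunits, beside 0.28 over all genes tested. The order of these medians was not stable. They were 0.28 for the meiotic and 0.82 for the general subunits without control 1, and 0.90 and 0.46 without control 2. Without KO-labelled library 1 they were 0.34 and 0.42, and without KO-labelled library 2 they were 0.88 and 0.54. The median over all genes tested moved as well, to 0.44, 0.15, 0.26 and 0.31 in the same order of samples left out. In limma at an FDR of 0.05, 0 of the 9 passed, and neither did any other gene (0.0% of 14512 higher and 0.0% lower), while at an unadjusted p under 0.05 there were 3 of the 9 (*Smc1b*, *Stag1* and *Smc3*) and 2091 genes in all. Both KO-labelled libraries were above both controls for 6 of the 9, beside 38.6% of all genes tested, and below both for 0, beside 12.1%. These counts moved with the scale. When libraries were scaled to each other by the median ratio over genes, the median over all genes tested went from 0.28 to -0.015, and 22.6% of all genes were higher in both KO-labelled libraries and 22.8% lower in both. On that scale 3 of the 9 stayed higher in both, namely *Smc1b* (233 and 206 against 397 and 414 scaled TPM), *Smc3* (65.3 and 70.5 against 109 and 95.1) and *Stag1* (68.4 and 65.8 against 108 and 116). Their log2 differences were then 0.88, 0.58 and 0.73. *Stag3* and *Smc1a* turned to -0.072 and -0.063, and *Rad21* and *Stag2* came to 0.11 and 0.16. With control 1 left out, the log2 differences were 1.47 for *Smc1b*, 1.25 for *Stag1*, 1.02 for *Smc3*, 0.82 for *Stag2* and 0.42 for *Rad21*. With control 2 left out they were 0.97, 0.88, 0.81, 0.14 and 0.46 in the same order. *Smc1a* was at 0.55 and -0.033 and *Rec8* at -0.25 and 1.59 in these 2 fits. The spread in them came from the 2 KO-labelled libraries alone, and the lone control was assumed to vary like them. Only the estimates are therefore given. With KO-labelled library 1 or 2 left out, *Smc1b* was at 1.23 and 1.21, *Stag1* at 1.09 and 1.04, and *Smc3* at 0.79 and 1.03.

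**Figure D3:**
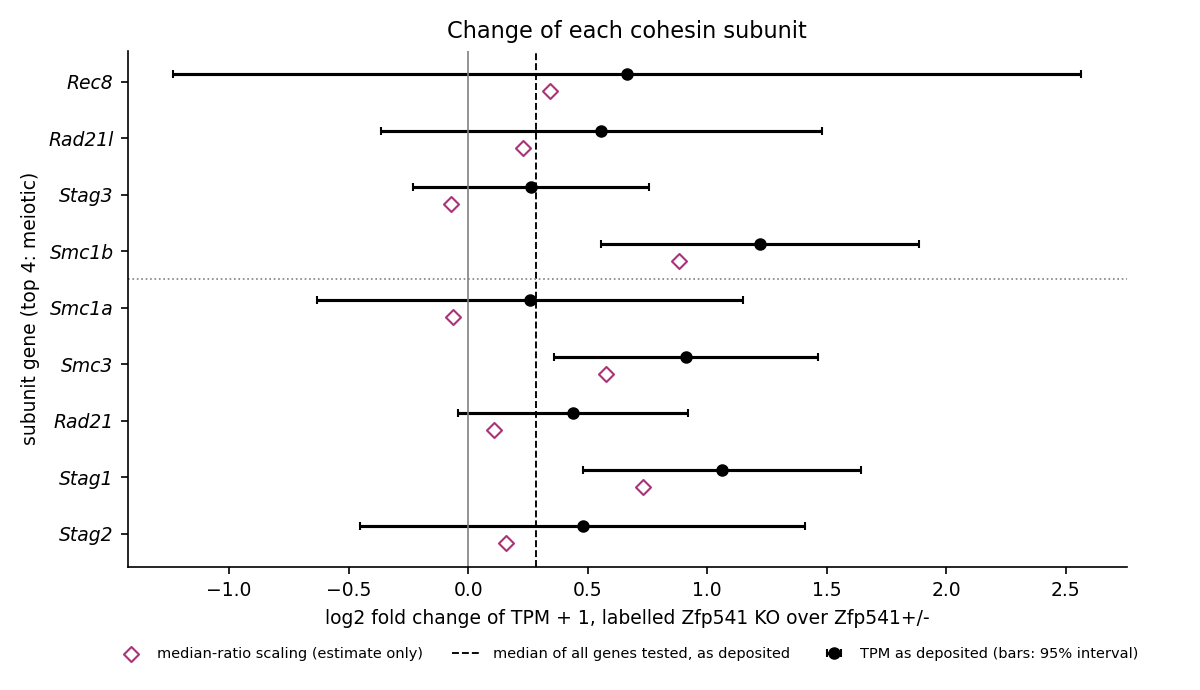
Log2 fold change of each subunit between the KO-labelled libraries and the controls (n = 2 each), with 95% intervals from limma on log2(TPM + 1), and open diamonds for the estimate after median-ratio scaling. The intervals of *Smc1b*, *Stag1* and *Smc3* lie above 0 before adjustment for 14512 genes, and the estimates for *Stag3* and *Smc1a* lie slightly below 0 after scaling.

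Promoter sequence was looked at for letters known from factors that act on meiotic genes. RefSeq promoters (GRCm38.p6, 250 bases before to 50 after the start) were matched for 7 of the 9 genes. The E2F-type letters GCGGGAA, searched on both strands, were present in 4 of these 7, the members with the 2 largest and the 2 smallest log2 differences. The letters were not found in *Smc3*, which had a log2 difference of 0.91. They were present in 5.29% of all 27025 genes with a promoter and in 9.67% of the 10924 that were tested. Each hit is given in 30 bases of the gene's own strand, so that the shared core and its flanks can be compared. The motif reads there as its reverse complement TTCCCGC, in capitals.
Smc1b, from 48 bases before the start (chr15:85131987-85132016, - strand): aaaagaatttcTTCCCGCgctttttttttt
Stag3, from 3 bases before the start (chr5:138280495-138280524, + strand): tatcccgtgccTTCCCGCgtttttttctaa
Stag1, from 16 bases before the start (chr9:100643421-100643450, + strand, at a RefSeq start inside the GENCODE span): aaaggccacgtTTCCCGCgccgctgctgcg
Smc1a, from base 39 after the start (chrX:152016448-152016477, + strand): cggcttgcactgcgctatTTCCCGCgcggg
The meiotic *Smc1b* and *Stag3* and the general *Stag1* and *Smc1a* thus carried the same letters, and these genes differed widely in the comparison, from 1.22 for *Smc1b* to 0.26 for *Smc1a* and *Stag3*. The E-box letters CACGTG were present in *Stag3* alone of the 7, starting 170 bases before the start, and in 11.7% of promoters of genes tested. The RefSeq start used for *Stag3* also lies inside the GENCODE span given above, and so do its hits. CNCCTCAG, the letters known from STRA8 binding, was found in none of the 7 and in 11.0% of promoters of genes tested. These are matches of letters and not sites of binding.

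Cohesin is loaded, released, acetylated, protected and cut by other proteins, and 17 such genes in 4 lists were all above the filter. Of the 17, 11 were higher and 2 lower in both KO-labelled libraries, 0 passed an FDR of 0.05 in limma, and the median log2 difference was 0.69. Over all genes tested, 38.6% were higher and 12.1% lower in both. The loaders and release factors had a median of 0.84, which was 1.24 without control 1 and 0.51 without control 2. The median over all genes tested was 0.44 and 0.15 in those 2 fits. Among them *Pds5a* and *Pds5b*, which bind cohesin together with WAPL, were at 55.4 and 27.2 against 85.5 and 85.7 TPM and at 39.0 and 25.3 against 61.0 and 65.0 TPM. *Nipbl*, the loader, was at 111 and 26.4 TPM in the control libraries and 98.99 and 112 TPM in the others, so that only control 2 stood apart (log2 difference 0.94). Of the acetylation enzymes, *Esco2* was at 39.2 and 61.2 against 111 and 83.0 TPM (log2 difference 0.96), *Esco1* at 43.0 and 31.1 against 61.1 and 62.7 TPM (0.74), and the deacetylase *Hdac8* at 5.83 and 1.78 against 2.52 and 2.82 TPM (-0.25). All 3 had an adjusted p of 0.324 or more from limma.

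Transcripts of genes for the protection of cohesin and the control of its cleavage had log2 differences on both sides of 0. Their median was 0.20, and it was -0.13 after median-ratio scaling, 0.30 without control 1 and 0.095 without control 2. *Sgol1*, one of the shugoshins that shield centromeric cohesin, was at 8.03 and 10.8 TPM in the control libraries and 18.0 and 17.6 TPM in the KO-labelled libraries (log2 difference 0.87, standard error 0.33, adjusted p = 0.348 from limma). *Meikin*, a meiosis-specific kinetochore factor that helps to protect REC8, was at 48.7 and 49.0 TPM and at 28.7 and 29.7 TPM (log2 difference -0.72, standard error 0.21, adjusted p = 0.315 from limma). *Meikin* values were thus lower in both KO-labelled libraries, opposite to *Sgol1* and to *Sgol2a*, which was at 47.2 and 30.1 against 57.9 and 58.7 TPM (0.62). The other gene lower in both was *Pttg1*, which encodes securin, the inhibitor of separase, at 202 and 198 against 125 and 149 TPM. It falls outside the rule for named genes and was chosen after its values were seen. *Ctcf*, which encodes a boundary factor at which cohesin stops on DNA, and its germline paralogue *Ctcfl* were higher in both KO-labelled libraries. *Ctcf* was at 38.5 and 31.1 against 58.0 and 55.2 TPM (log2 difference 0.69, adjusted p = 0.322 from limma). *Ctcfl* was at 3.75 and 5.83 against 33.1 and 25.1 TPM (log2 difference 2.39, adjusted p = 0.310 from limma).

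Cohesin was set beside the other SMC complexes and the axis proteins it carries, where the shares to read each count against are again 38.6% of all genes higher and 12.1% lower in both KO-labelled libraries, or 22.6% and 22.8% after median-ratio scaling. The 8 condensin subunits had a median log2 difference of 0.75, and 7 were higher in both KO-labelled libraries, with *Ncapg2* (27.7 and 20.9 against 60.3 and 50.2 TPM), *Ncaph* (42.4 and 52.6 against 100.2 and 100.3 TPM) and *Smc2* (33.4 and 21.8 against 49.1 and 52.6 TPM) farthest from 0. The 6 SMC5/6 subunits measured, of 8 listed, had a median of 0.33 (0.10 without control 2), with 4 higher and 2 lower in both. The 3 farthest from 0 were *Smc5* (93.0 and 48.4 against 106 and 116 TPM), *Nsmce1* (170 and 246 against 127 and 151 TPM) and *Smc6* (156 and 85.3 against 166 and 174 TPM). Of the 10 axis and synaptonemal complex genes, 7 were higher in both, with a median of 0.78 (0.47 without control 1), led by *Hormad1* (531 and 728 against 1145 and 1232 TPM), *4930447C04Rik* (111 and 190 against 256 and 292 TPM) and *Sycp3* (1108 and 1263 against 2093 and 2196 TPM). After median-ratio scaling the medians were 0.42, 0.00024 and 0.44, beside 0.23 for the 9 cohesin subunits. The differences between lists were not tested, and the median of the 9 cohesin subunits itself was 0.85 without KO-labelled library 2. The median over all genes tested was 0.44 without control 1, 0.15 without control 2 and 0.31 without KO-labelled library 2.

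**Figure D4:**
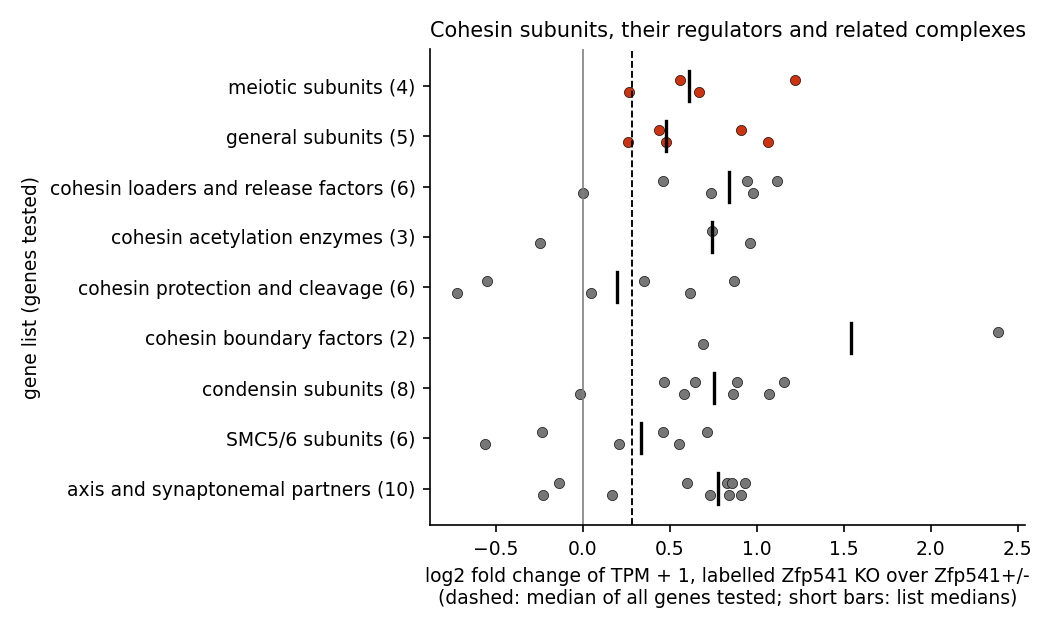
Log2 fold change of every gene tested in the cohesin lists, the lists of cohesin regulators, the other SMC complexes and the axis proteins, 1 point per gene, with list medians as short bars and the median of all genes tested (0.28) as a dashed line. Points lie on both sides of the dashed line, with *Ctcfl* at 2.39 and *Meikin* at -0.72 as the extremes.

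The genes whose profile over the 4 libraries was nearest to that of each meiotic subunit were found among the 9837 genes averaging 10 TPM or more, by the Euclidean distance between centred log2(TPM + 1) values. Nearest to *Smc1b* were *Rlf* (distance 0.060), *Tmem123* (0.068) and *Zfp68* (0.071). *Rlf* was at 24.5 and 16.3 TPM in the control libraries and 48.9 and 49.5 TPM in the others. Nearest to *Stag3* were *Atg13* (0.025), *Slc39a7* (0.036) and *Zdhhc7* (0.040), and nearest to *Rad21l* were *Rhpn2* (0.073), *Rrm2* (0.095) and *Yy2* (0.10). For *Rec8* the nearest genes were at 0.19 for *Pth1r*, 0.19 for *Xlr3b* and 0.21 for *Gal3st1*, with 5.60, 4.91 and 12.8 TPM in control 1. The distance was not scaled by the spread of a profile, so distances of different members cannot be compared. All these genes were chosen for their likeness, so an order of libraries shared with the member follows from the choice. With 4 libraries such likeness is a description only.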

How the data were processed

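Per the labels and the study's methods, the authors trimmed single-end reads with Trim Galore 0.5.0 (cutadapt 1.16), aligned them to UCSC mm10 with STAR 2.6.0a, estimated gene expression with RSEM 1.3.1 and deposited TPM values, 1 file per sample. TPM keeps no depth, so no counting error can be given. Samples were grouped by their labels. The samples of a group came from separate testes, and no label says which samples shared a litter.

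The 14512 genes (of 24411) that averaged 1 TPM or more were fitted on log2(TPM + 1) by limma 3.58.1 (R 4.3.3), with genotype as the only term and the variance trended on the mean. P-values were adjusted over all of them (Benjamini-Hochberg, FDR 0.05). Fits were tested on simulated data with equal noise in every library, so that test does not cover the unequal spread of these groups. Median-ratio scaling, quantile normalization, other pseudocounts and filters, the replicate block and leaving out each sample were alternatives. The 9 members, the lists and the tests were chosen with earlier results of these data known. Genes named outside the 9 were, per list, the 3 with the largest log2 difference (all for lists of 3 or fewer), and the 3 nearest profiles of each meiotic subunit. Symbols had turned into dates in 27 rows, which were given no name. Gene positions came from GENCODE M21 and promoters from RefSeq, both GRCm38. Figures were drawn with matplotlib.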

Additional observations from a re-analysis of the deposited data

How the results depend on the processing

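Of the alternatives, only the crossed replicate block was added after the data were seen. No gene passed an FDR of 0.05 in limma except as follows. With a sample left out, the genes called numbered 0 to 5610 higher and 0 to 1875 lower, and the cohesin subunits called 0 to 5, where the construction of the fits without a control (spread from the KO-labelled libraries alone) gave the calls. Deviations from the group means had a correlation of -0.16 across genes between same-numbered samples. With so few libraries, and with the controls far apart, this value cannot tell whether same-numbered samples shared a litter or a sort. With the replicate block 0 genes were higher and 0 lower, and with crossed numbers 7 and 80.

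Median-ratio scaling moved the median log2 difference of the meiotic subunits from 0.61 to 0.28, of the general ones from 0.48 to 0.16, of the cohesin regulators from 0.69 to 0.36 and of the other SMC complexes from 0.57 to 0.24. Quantile normalization moved them to 0.42, 0.26, 0.43 and 0.41. Both scalings lowered the median over all genes, to -0.015 and 0.077. With a sample left out these 4 medians ranged from 0.28 to 0.90, 0.42 to 0.82, 0.47 to 0.72 and 0.50 to 0.63. The median over all genes tested then ranged from 0.15 to 0.44. The SA log2 ratio went from -0.70 to -0.43 with quantile normalization and to -0.24 for *Stag3* against *Stag2* alone, and the SMC1 log2 ratio from 0.95 to 1.302 with quantile normalization. Quantile normalization changes ratios within a library. With a sample left out they ranged from -0.92 to -0.47 and from 0.82 to 1.08, and the kleisin log2 ratio from -0.35 to 0.63.

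Signs turned for *Stag3* with median-ratio scaling (-0.072), for *Smc1a* with median-ratio scaling (-0.063), quantile normalization (-0.033) and without control 2 (-0.033), and for *Rec8* without control 1 (-0.25). With a sample left out *Smc1a* ranged from -0.033 to 0.55 and *Rec8* from -0.25 to 1.59. *Smc1b* ranged from 0.88 to 1.47, *Stag1* from 0.73 to 1.25 and *Smc3* from 0.58 to 1.03 over the 14 alternatives each. The depth is unknown, so the counting error of the low genes *Rec8*, *Smc1a* and *Stag2* cannot be given.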
